A study of Mus musculus with 43 samples.

Results

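Oligodendrocytes of 4 control and 4 Rag2-/- mice were compared, which are 8 of the 43 sequenced samples of a study of cortical glia. All 8 oligodendrocyte samples that the labels give were used, each from 1 mouse aged 3 months, and they come from littermate pairs 1, 3, 5 and 6. The Rag2-/- mice carried the Rag2 tm1.1Cgn allele crossed to C57BL/6J on both chromosomes, in every cell and from conception. The control mice of pairs 1, 3 and 5 were Rag2+/- and therefore carried 1 copy of the same allele, while the control of pair 6 was Rag2+/+. The controls of pairs 1, 3 and 6 and the Rag2-/- mice of pairs 1 and 3 were male. The control of pair 5 and the Rag2-/- mice of pairs 5 and 6 were female, so the mice of pair 6 also differed in sex. Cells were taken from cortical grey matter by immunopanning, in which antibody on a plate holds the cells of interest, here antibody against GalC, a galactolipid on the surface of oligodendrocytes. Cells that bound plates against CD45, PDGFRα and O4 had been removed before, and all oligodendrocyte libraries shared 1 sequencing lane. White matter was not sampled.

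Rag2 is a subunit of the recombinase that assembles the antigen receptor genes of T and B cells, and mice without it have no mature lymphocytes. Oligodendrocytes wrap axons in myelin, a membrane of cholesterol, galactolipids and a few very abundant proteins, and they arise from oligodendrocyte precursor cells (OPCs) in steps that Notch, Wnt and BMP signals are known to hold back. The 43 gene lists described here follow those roles and the signals by which lymphocytes could reach a glial cell.

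Between 9009143 and 14936552 read pairs per library were counted on genes, and 45.8% to 60.1% of them came from mitochondrially encoded genes. The labelled cell type was checked against its markers. The 19 myelin genes took 1.92% to 2.73% of the gene counts of control libraries and 2.22% to 2.79% of those of Rag2-/- libraries, and each of the other marker lists at most 0.268%. Rag2 itself had 0 counts in all 8 libraries, which allows up to 3 counts in each and cannot check the genotype labels. Iftap, whose gene contains Rag2, had 34, 41, 36 and 77 counts in the control libraries of pairs 1, 3, 5 and 6 and 0, 0, 0 and 2 in the Rag2-/- libraries, so each library went with its label.

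Counts were scaled with TMM factors to counts per 1000000 counts (CPM), and each gene was tested for genotype with sex as a covariate by edgeR's quasi-likelihood test. Values are given below in the order of pairs 1, 3, 5 and 6, and fold changes are on the log2 scale, Rag2-/- over control, with their standard error. Of 13802 genes, 0 (0.0%) passed a Benjamini-Hochberg adjusted p of 0.05. The smallest adjusted p was 0.4997 for Ext2, and that of every other gene named below was 0.998 to 1. At an unadjusted p under 0.05 there were 467 genes (3.38%), of which 209 (1.51%) were higher and 258 (1.87%) lower in Rag2-/- libraries. DESeq2 with the same terms called 12 of these 13802 genes, 5 higher and 7 lower. When it was run on all genes with a count it called 199, with 19 higher and 180 lower, and edgeR without a filter on low counts called 14, with 3 higher and 11 lower. Most of these 14 reached 10 counts in only 1 or 2 libraries, though some, Ext2 among them, did so in all 8. The values of the 4 control and the 4 Rag2-/- libraries did not overlap for 325 genes (2.35%), with 143 (1.04%) higher and 182 (1.32%) lower. All 4 littermate pairs went the same way for 839 genes (6.08%) that were higher and 892 (6.46%) that were lower. The p-values measure the spread between these mice. The shares of all genes given here are the background for the counts in the gene lists below.

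Effect sizes followed the level of expression (the plot of fold change against level). The fold change was above 0 for 50.2% of the genes, with a median of 0.00 and a middle range of -0.41 to 0.41. The median size of the fold change without its sign was 0.69 for the 4631 genes of 1 to 5 CPM, 0.42 for the 5068 genes of 5 to 20 CPM, 0.25 for the 3268 genes of 20 to 100 CPM and 0.16 for the 537 genes of at least 100 CPM. The standard error went the same way, with medians of 1.08, 0.61, 0.35 and 0.23. By class of gene, an estimated change of more than 2-fold was found for 15.9% of 11701 protein-coding genes, 36.7% of 605 long noncoding RNAs and 11.6% of 646 processed pseudogenes. An estimated change of more than 2-fold was found for 1199 genes (8.69%) that were higher and 1245 genes (9.02%) that were lower, and for 0 of the 537 genes of at least 100 CPM. The 95% interval lay wholly within a 2-fold change for 489 of those 537 genes (91.1%), for 2029 of the 3805 genes of at least 20 CPM (53.3%) and for 2155 of all 13802 genes (15.6%). A change of 2-fold or more was therefore outside the interval for most abundant genes, and for most genes below 20 CPM these libraries could not show it either way.

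**Figure D1:**
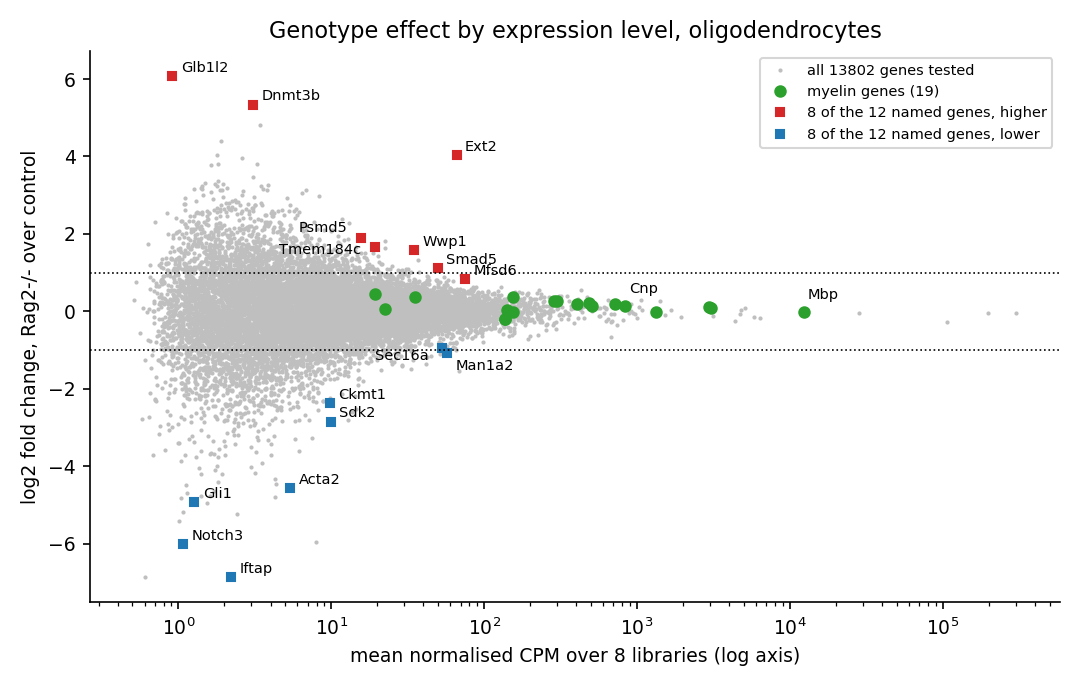
Each grey point is 1 of the 13802 genes tested, with its mean normalised CPM over the 8 libraries on a log axis and its log2 fold change, Rag2-/- over control, on the linear axis. Dotted lines mark a 2-fold change, green circles the 19 myelin genes, and red and blue squares 8 of the 12 genes with the smallest unadjusted p in each direction. The cloud narrows from left to right, and the myelin genes lie between -0.21 and 0.44.

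Libraries of oligodendrocytes varied more between mice than those of the other cell types. The biological coefficient of variation, which is the spread between mice beyond counting error in the same edgeR fit, was 67.3% in the 8 oligodendrocyte libraries, against 39.3% in 11 OPC, 32.1% in 12 astrocyte and 28.2% in 12 microglia libraries. The median standard error of a fold change was 0.66 in oligodendrocytes and 0.28, 0.25 and 0.23 in the others. The controls of pairs 5 and 6 and the Rag2-/- library of pair 5 stood apart most often, being the highest of the 8 libraries for 15.9%, 16.7% and 15.3% of the genes and the lowest for 18.1%, 18.2% and 16.9%.

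Ext2, an enzyme that lengthens heparan sulfate chains, had the smallest p. It lies on chromosome 2 of GRCm39 (chr2:93491373-93653003), the chromosome that also holds Rag2. Control libraries held 11.9, 12.9, 2.32 and 3.84 CPM and Rag2-/- libraries 94.7, 372, 22.5 and 7.71 CPM. The level was higher in the Rag2-/- mouse of each pair, but the Rag2-/- library of pair 3 held 70.5% of all normalised counts and that of pair 6 lay within the controls' range. The fold change was 4.03 ± 0.62 (unadjusted p = 3.62e-05 by edgeR's quasi-likelihood test), or, without the Rag2-/- library of pair 3, 3.05.

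Wwp1, Psmd5 and Smad5 were also among the 12 genes that were higher with the smallest p. Wwp1, a ubiquitin ligase (chr4:19605285-19709190), stood at 28.6, 27.6, 6.34 and 24.05 CPM in controls and 49.1, 69.0, 40.2 and 32.2 in Rag2-/- libraries, with a fold change of 1.59 ± 0.36. Psmd5, a chaperone for assembly of the proteasome (chr2:34739746-34764980), stood at 8.88, 9.99, 3.78 and 8.08 CPM in controls and 44.0, 18.6, 18.3 and 12.9 CPM in Rag2-/- libraries, a fold change of 1.88 ± 0.43. Smad5, which carries BMP signals to the nucleus (chr13:56850797-56890190), stood at 42.9, 27.2, 28.7 and 27.6 CPM in controls and 63.1, 72.0, 82.1 and 55.7 CPM in Rag2-/- libraries, a fold change of 1.13 ± 0.28. For all 3 genes every Rag2-/- library lay above every control library. Exons of other genes overlap 34.1% of the exonic bases of Wwp1 and 10.8% of those of Psmd5, and reads there could belong to either gene.

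Tmem184c and Mfsd6 were even within both groups. Controls held 12.3, 10.1, 6.10 and 10.5 CPM of Tmem184c, a membrane protein, and Rag2-/- libraries 30.1, 24.1, 29.7 and 32.1, a fold change of 1.65 ± 0.38. Mfsd6, a transporter of the major facilitator family, was the most abundant of the 12, at 68.5, 50.9, 45.0 and 57.4 CPM in controls and 98.8, 98.8, 88.9 and 93.0 CPM in Rag2-/- libraries, and its fold change was 0.84 ± 0.22. In both genes the groups were separate. The groups were also separate for Ebag9 (1.65 ± 0.45), for Arf2, a GTPase of vesicle traffic (1.82 ± 0.51), and for Cby1, an antagonist of β-catenin (2.20 ± 0.62), while Ppia, the cyclophilin A gene (2.12 ± 0.61), overlapped between groups. Of the 50-base windows in the transcript of Ppia, 45.1% occur again elsewhere in the genome, so reads of these windows cannot be placed with certainty.

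The other 2 of the 12 were close to absent in controls. Dnmt3b, a DNA methyltransferase, had 3, 0, 0 and 1 counts in controls and 45, 29, 29 and 184 in Rag2-/- libraries. Glb1l2, a relative of the lysosomal β-galactosidase, had 0, 0, 0 and 1 counts in controls and 65, 11, 11 and 13 in Rag2-/- libraries. The Rag2-/- libraries held 89.9 times the Glb1l2 level of controls, with an exact 95% counting interval of 15.8 to 3587, since the control total was 1 count. Such intervals cover counting error only.

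**Figure D2:**
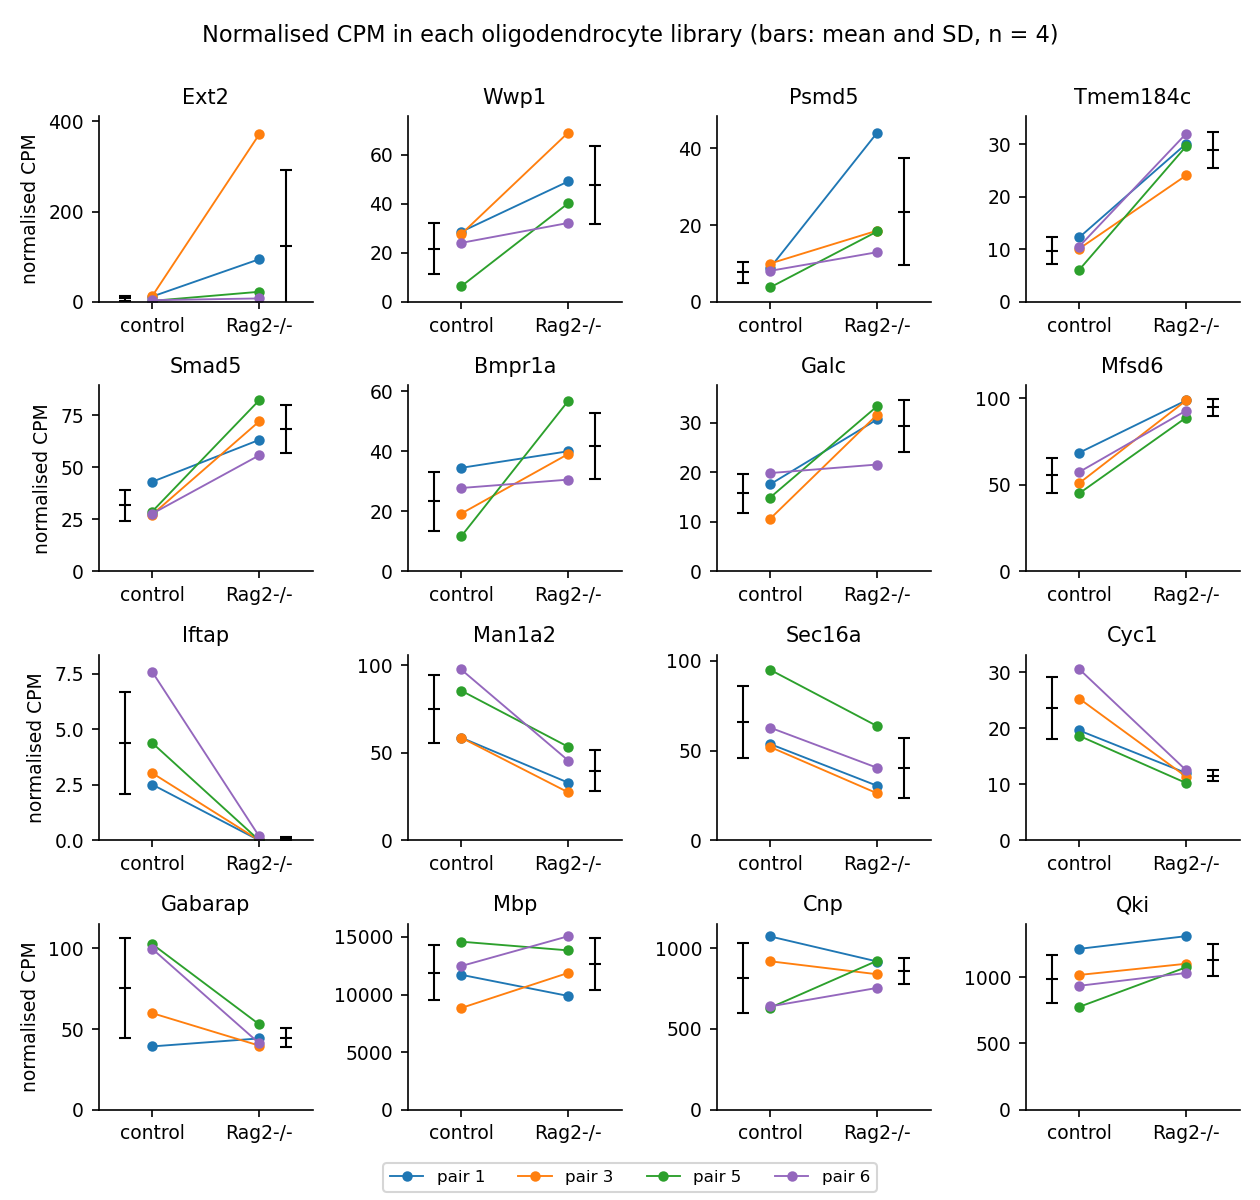
Each panel shows the normalised CPM of 1 gene in the 4 control and 4 Rag2-/- libraries, with littermates joined by a line and the mean and SD (n = 4) of each group as a black bar, whose lower end is cut off at 0 for Ext2. Tmem184c, Smad5, Galc, Mfsd6, Man1a2, Iftap and Cyc1 have separate groups, and Mbp, Cnp and Qki have overlapping ones.

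Of the 12 genes that were lower with the smallest p, 2 were well expressed. Man1a2, a mannosidase that trims N-linked glycans in the Golgi (chr3:100449283-100593317), stood at 58.8, 58.7, 85.6 and 97.7 CPM in controls and 33.0, 27.5, 53.5 and 45.6 in Rag2-/- libraries. Every control lay above every Rag2-/- library, and the fold change was -1.08 ± 0.28. Sec16a, which organises the sites where cargo leaves the endoplasmic reticulum (chr2:26299443-26335899), stood at 53.7, 52.0, 94.98 and 62.8 CPM in controls and 30.4, 26.2, 63.6 and 40.4 CPM in Rag2-/- libraries. It was lower in the Rag2-/- mouse of every pair by a similar amount, although the groups overlapped through pair 5, and its fold change was -0.95 ± 0.25.

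Iftap, a protein linked to transport in cilia (chr2:101391125-101484020), had the second smallest p of all genes (unadjusted p = 0.00042 from edgeR's quasi-likelihood test). It stood at 2.52, 3.03, 4.39 and 7.59 CPM in controls and 0, 0, 0 and 0.177 in Rag2-/- libraries. Controls held 104.5 times the level of Rag2-/- libraries, with an exact 95% counting interval of 28.5 to 869. The span of this gene contains that of Rag2, and 6.2% of its exonic bases overlap exons of other genes. The 35 genes tested within 5 Mb of Rag2, Iftap included, had a median fold change of 0.12, and 1 of them had an unadjusted p under 0.05.

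The remaining 9 were lowly expressed or uneven between mice. Notch3, a Notch receptor of vascular mural cells, had 14, 34, 10 and 38 counts in controls and 0, 1, 0 and 0 in Rag2-/- libraries, and Adamts18, a secreted protease, had 22, 16, 19 and 28 counts in controls and 2, 0, 0 and 0 in Rag2-/- libraries. Magee2 had 13, 21, 10 and 11 counts in controls and 0 in each Rag2-/- library. Gli1, the transcription factor of hedgehog signalling, had 11, 17, 25 and 47 counts in controls and 1, 0, 1 and 3 in Rag2-/- libraries. In these genes and in Shisa3 the groups were separate, though the control of pair 6 held 74.8% of the normalised counts of Shisa3. Ckmt1, the mitochondrial creatine kinase (-2.37 ± 0.55), Sdk2, a synaptic adhesion protein (-2.85 ± 0.70), Acta2, smooth muscle actin (-4.56 ± 1.25), and Dnah8, a dynein of cilia (-4.03 ± 1.14), were lower in all 4 pairs with overlapping groups. The control of pair 5 held 40.8%, 50.6%, 58.4% and 44.9% of their normalised counts. Acta2 is 1 of 13 markers of mural cells and fibroblasts, and Notch3 is also known from mural cells. These markers summed to 0.00406%, 0.00696%, 0.00872% and 0.0106% of the gene counts in controls and 0.00522%, 0.00944%, 0.00604% and 0.00406% in Rag2-/- libraries, higher in 2 pairs and lower in 2, and 1 of the 13 was at 0 in all libraries. The median fold change of the 7 tested was -1.76, and 0.14 with the littermate pair as a block. The genotype effect with the block rests on pairs 1, 3 and 5, since the mice of pair 6 also differed in sex. The part of mural transcripts in Notch3 and Acta2 was not tested.

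These 24 genes were chosen for their p among genes with a symbol other than a predicted-gene name, so their values are a description. All 24 kept an unadjusted p under 0.05 in every alternative in which they were tested, 18 to 20 each, except Acta2, which kept it in 18 of 19. Leaving out 1 library at a time gave 1.02 to 1.29 for Smad5, 1.31 to 1.87 for Tmem184c, 0.75 to 0.93 for Mfsd6 and -1.24 to -0.89 for Man1a2. Arf2 was 1.23 without the control of pair 5. That library was the only female control. With the sex term, every estimate given here without it therefore compares male mice only. Such a value does not show the weight of that 1 library alone.

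Among genes of at least 100 CPM, 7 had an unadjusted p under 0.05 (1.30%), and they are named here after their values were seen. Dpysl2, a regulator of microtubules in growing processes, stood at 438, 366, 281 and 350.0 CPM in controls and 521, 478, 620.2 and 409 in Rag2-/- libraries. It was higher in all 4 pairs with overlapping groups, and the fold change was 0.55 ± 0.21 with a 95% interval of 0.10 to 1.00. Also higher were Rassf2 at 0.62, Cdc37l1 at 0.47, Otud7b at 0.44 and the dynein subunit Dync1li2 at 0.40. The 7SK RNA gene Rn7sk and the DNA-binding protein gene Pura were lower, at -0.60 and -0.58. Rassf2 was 0.26 without the control of pair 5, and Pura -0.34 without the control of pair 6.

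The genes of myelin were measured with narrow errors, and their intervals were small against a 2-fold change. Mbp, myelin basic protein, stood at 11714, 8829, 14589 and 12472 CPM in controls and 9875, 11879, 13834 and 15066 in Rag2-/- libraries. It was higher in the Rag2-/- mouse of 2 pairs and lower in 2, and its fold change was -0.02 ± 0.14 with a 95% interval of -0.33 to 0.30. Cnp, a phosphodiesterase of non-compact myelin, stood at 1073, 919, 631 and 639 CPM in controls and 918, 839, 922 and 754 CPM in Rag2-/- libraries, a fold change of 0.14 ± 0.20 and an interval of -0.30 to 0.59. Here the control of pair 1 was the highest of all 8 libraries. Mobp (0.08 ± 0.15), the adhesion protein Mag (0.27 ± 0.24) and the surface glycoprotein Mog (-0.02 ± 0.25) also overlapped between groups. Exons of other genes overlap 64.6% of the exonic bases of Mog.

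Of the 19 myelin genes, 0 had an unadjusted p under 0.05, with a median fold change of 0.14, against 3.38% and 0.00 over all genes. For 16 of the 19 the 95% interval lay within 2-fold. The median was -0.23, 0.09, 0.37 and 0.30 in pairs 1, 3, 5 and 6, so the littermates of pair 1 went the other way from those of pairs 5 and 6. Under the alternatives it was -0.01 to 0.26. Among 20 genes of paranodes and axon-glia adhesion and 35 genes of the cytoskeleton and process outgrowth, 0 and 0 had an unadjusted p under 0.05, with medians of 0.02 and 0.05, and for 14 and 24 of them the interval lay within 2-fold.

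Transcription factors of the lineage had a median of 0.13. Olig2, which specifies the lineage, stood at 30.3, 45.4, 35.2 and 38.8 CPM in controls and 33.9, 62.5, 47.0 and 22.2 CPM in Rag2-/- libraries (0.21 ± 0.33). Its relative Olig1 (0.27 ± 0.26), Sox10 (-0.01 ± 0.28) and Myrf, which switches on myelin genes (0.13 ± 0.25), overlapped between groups. Of 18 members tested, 1 had an unadjusted p under 0.05. This was Carm1, a methyltransferase of histones and RNA-binding proteins, at 10.3, 14.5, 8.66 and 14.98 CPM in controls and 6.95, 9.57, 2.33 and 0.9748 in Rag2-/- libraries (-1.29 ± 0.56). It was lower in all 4 pairs, by most in pairs 5 and 6, and the estimate was -0.67 without the control of pair 5.

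No marker of the maturation states of the lineage had separate groups. In 20 markers of mature oligodendrocytes and 18 markers of committed precursors and newly formed oligodendrocytes, 0 and 0 had an unadjusted p under 0.05. Their medians were 0.06 and 0.32, and the second was 0.12 to 0.42 under the alternatives. Il33, a nuclear cytokine of mature oligodendrocytes, stood at 303, 234, 124 and 125 CPM in controls and 247, 276, 293 and 237 CPM in Rag2-/- libraries (0.54 ± 0.30). The Rag2-/- libraries fell within a narrow band and the controls spanned it. Gpr17, a receptor of differentiating precursors, stood at 102, 130.3, 114 and 29.8 CPM in controls and 152, 257, 98.9 and 21.8 CPM in Rag2-/- libraries (0.43 ± 0.57), with both mice of pair 6 far below the rest. Without the Rag2-/- library of pair 3 the estimate for Gpr17 was 0.01, and without the control of pair 5 that for Il33 was 0.25.

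Markers of OPCs moved with those of committed precursors. The 15 OPC markers summed to 0.0913%, 0.180%, 0.0951% and 0.0497% of the gene counts in controls and 0.133%, 0.205%, 0.109% and 0.0546% in Rag2-/- libraries. The sum was higher in the Rag2-/- mouse of all 4 pairs, and the ratio of the group means was 1.20. The fold change was above 0 for 13 of the 15, against 50.2% of all genes. The median was 0.33 (0.11 to 0.76 under the alternatives), and 0 had an unadjusted p under 0.05. The part of OPC transcripts in the precursor markers was not tested. In bulk samples, fewer cells of a type and less RNA per cell cannot be told apart.

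**Figure D3:**
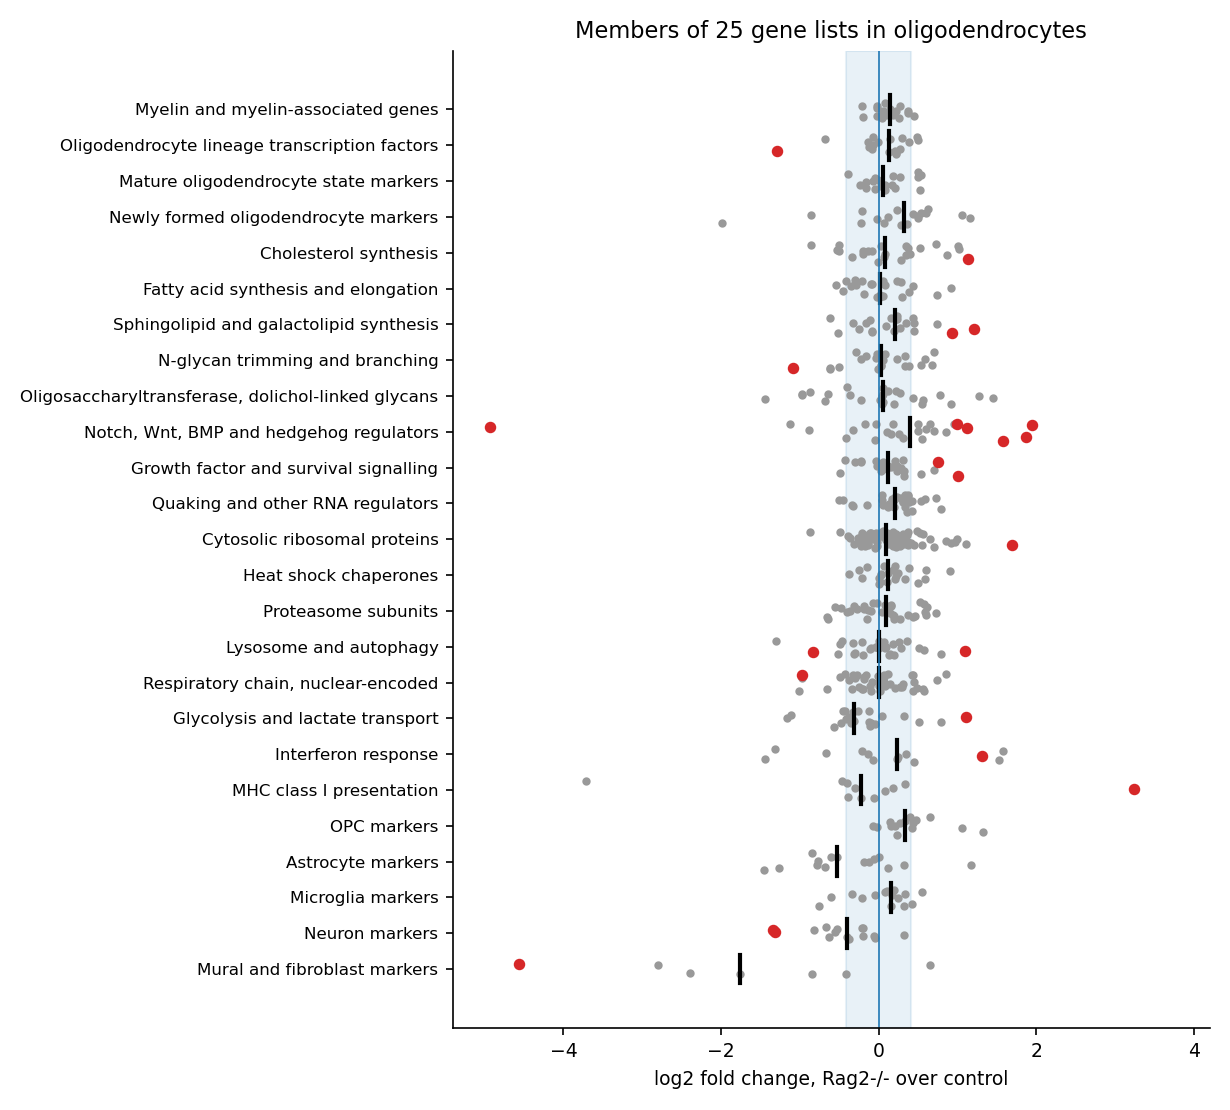
Each point is a member of 1 of 25 gene lists with its log2 fold change, Rag2-/- over control, on the horizontal axis, red where the unadjusted p was under 0.05. Black bars are list medians, the blue line is the median of all 13802 genes and the blue band their middle range, -0.41 to 0.41. The medians of 23 lists lie inside the band, and those of the astrocyte and mural markers lie below it.

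Myelin lipids are made by 3 groups of enzymes. In cholesterol synthesis and uptake, 1 of 24 genes had an unadjusted p under 0.05, and the median was 0.08. Hsd17b7, which reduces a sterol intermediate, stood at 18.9, 24.9, 4.76 and 7.88 CPM in controls and 19.9, 40.4, 21.2 and 11.8 CPM in Rag2-/- libraries (1.13 ± 0.50). Sqle, squalene epoxidase, stood at 44.8, 38.5, 38.4 and 88.9 CPM in controls and 23.1, 25.7, 26.1 and 44.1 CPM in Rag2-/- libraries (-0.86 ± 0.39, unadjusted p = 0.0505 from edgeR's quasi-likelihood test), lower in all 4 pairs, and the estimate was -0.52 without the control of pair 6. Hmgcs1, HMG-CoA synthase, was at 0.37 ± 0.28 with overlapping groups.

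In fatty acid synthesis, 0 of 23 genes had an unadjusted p under 0.05, with a median of 0.01. Scd2, the abundant stearoyl-CoA desaturase, stood at 1754, 1613, 1053 and 850.2 CPM in controls and 1895, 1513, 1167 and 1394 CPM in Rag2-/- libraries (0.28 ± 0.22). Acsl3, an acyl-CoA synthetase, was the member whose groups were separate (0.44 ± 0.25, 52.6 to 92.2 CPM in controls and 94.7 to 112 in Rag2-/- libraries). Without the control of pair 5 the estimate for Acsl3 was 0.13.

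In sphingolipid and galactolipid metabolism, 2 of 22 genes had an unadjusted p under 0.05, against 3.38% of all genes. Both were higher, and the list's median was 0.21 (0.10 to 0.25 under the alternatives). Galc, the lysosomal enzyme that breaks down the galactolipids of myelin (chr12:98167963-98225718), stood at 17.5, 10.6, 14.9 and 19.8 CPM in controls and 30.6, 31.6, 33.3 and 21.5 in Rag2-/- libraries. Every Rag2-/- library lay above every control, though those of pair 6 were nearly equal, and the fold change was 0.93 ± 0.35. Ugcg, which makes glucosylceramide, stood at 13.9, 18.6, 3.41 and 14.6 CPM in controls and 21.4, 23.7, 27.9 and 18.2 CPM in Rag2-/- libraries (1.21 ± 0.52), and the estimate was 0.53 without the control of pair 5. The enzymes that make the GalC antigen used for panning and its precursor, Ugt8a (0.27 ± 0.23) and Fa2h (0.23 ± 0.22), overlapped between groups. Sptlc2, a subunit of the first enzyme of sphingolipid synthesis, was lower with separate groups (-0.62 ± 0.33), 25.8 to 31.0 CPM against 12.4 to 23.5.

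In the pathway of Man1a2 no other gene had a small p. Of 22 genes that trim and branch N-linked glycans, Man1a2 was the 1 with an unadjusted p under 0.05, and the median was 0.03. The related genes Man1a, Man1b1 and Man1c1 were at -0.01 ± 0.31, -0.04 ± 0.52 and 0.68 ± 0.42, and Man1c1 was at 0.03 without the Rag2-/- library of pair 3. Among 26 genes that assemble the glycan on dolichol and transfer it to proteins, 0 had an unadjusted p under 0.05 and the median was 0.05. Magt1 (0.92 ± 0.43) and Ostc (1.27 ± 0.63), subunits of the transferase, had the smallest p of these, and Magt1 was 0.44 without the control of pair 5.

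Regulators of Notch, Wnt, BMP and hedgehog signalling held more genes with a small p than any other of the 43 lists. Of 26 tested, 5 were higher and 1 lower at an unadjusted p under 0.05, against 1.51% and 1.87% of all genes, and the median was 0.40 (0.11 to 0.53 under the alternatives). Lists and members were chosen with earlier results of these data known. Smad5 and Gli1 are also among the 12 genes named in each direction by their p, so these counts are a description and no test of the list. The median over littermate ratios was 0.30, 0.22, 0.09 and -0.12 in pairs 1, 3, 5 and 6, so pair 6 went the other way. The OPC markers (above) had a median of 0.33 over the same libraries, and 0.53, 0.23, 0.06 and 0.33 over the littermate ratios, and their part in this list was not tested. On the BMP branch, the receptor gene Bmpr1a stood at 34.4, 19.2, 11.6 and 27.7 CPM in controls and 39.9, 39.0, 56.7 and 30.5 in Rag2-/- libraries (1.00 ± 0.40), next to Smad5 described above. It was higher in all 4 pairs, by most in pair 5, and the estimate was 0.55 without the control of pair 5. The other genes of this branch were at 0.50 ± 0.83 for Smad1, -0.18 ± 0.39 for Smad4, -0.03 ± 0.23 for Bmpr2, 0.18 ± 0.31 for the inhibitor Smad7 and 0.70 ± 0.48, -1.12 ± 1.22 and -0.41 ± 0.91 for the targets Id2, Id3 and Id4. The estimate for Id2 was 0.29 without the Rag2-/- library of pair 3, and those for Smad1, Id3 and Id4 changed sign when 1 library was left out.

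On the Notch branch, the ligand gene Dll1 stood at 5.33, 8.14, 3.78 and 1.18 CPM in controls and 9.92, 14.2, 18.9 and 14.3 CPM in Rag2-/- libraries (1.58 ± 0.64) with separate groups, and exons of other genes overlap 34.8% of its exonic bases. Hey1, a transcriptional target of Notch, stood at 7.33, 2.59, 2.07 and 9.95 CPM in controls and 11.6, 29.0, 21.6 and 4.17 CPM in Rag2-/- libraries (1.95 ± 0.70), higher in 3 pairs and lower in pair 6. The receptor gene Notch1 was at -0.89 ± 0.44. The receptor gene Notch3 is not a member of this list, so the counts above leave it out. It was lower at -6.01 ± 1.32, with few counts in either group (above). On the Wnt branch, the co-receptor gene Lrp5 stood at 3.11, 2.89, 1.59 and 2.96 CPM in controls and 27.7, 1.56, 1.52 and 5.23 CPM in Rag2-/- libraries. Its fold change of 1.87 ± 0.85 came from the Rag2-/- library of pair 1, and without that library it was 0.03. Axin2, a target of Wnt, was at -0.32 ± 0.50 and Apc at -0.05 ± 0.24. On the hedgehog branch Gli1 was lower (above), while Ptch1, also a target, was at 0.10 ± 0.35.

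In growth factor and survival signalling, 2 of 25 genes had an unadjusted p under 0.05, against 3.38% of all genes, and the list's median was 0.12. These 2 genes were higher. They regulate the kinase mTOR in opposite ways. Rheb, its activator, stood at 12.3, 20.3, 5.36 and 20.01 CPM in controls and 29.0, 21.3, 17.6 and 25.5 CPM in Rag2-/- libraries (1.00 ± 0.45, and 0.53 without the control of pair 5). Tsc2, which inhibits Rheb, stood at 41.8, 30.3, 21.5 and 22.3 CPM in controls and 63.9, 46.2, 25.4 and 42.7 CPM in Rag2-/- libraries (0.76 ± 0.32). Both were higher in all 4 pairs with overlapping groups, and Mtor itself was at 0.28 ± 0.39.

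Ribosomal proteins, proteasome subunits and heat shock chaperones had medians between 0.09 and 0.11, against 0.00 for all genes. Of 73 cytosolic ribosomal proteins, 1 had an unadjusted p under 0.05 and the median was 0.10. That gene, Rpl13a, stood at 3.63, 1.33, 1.83 and 4.63 CPM in controls and 26.2, 3.71, 3.34 and 2.66 CPM in Rag2-/- libraries, and its fold change of 1.70 was 0.45 without the Rag2-/- library of pair 1. Of 34 proteasome subunits 0 had such a p, with a median of 0.09, and Psma7 (-0.56 ± 0.30) and Psmd1 (-0.65 ± 0.30) were lower with separate groups, opposite to the assembly factor Psmd5. Of 23 heat shock chaperones 19 were above 0, against 50.2% of all genes, and 0 had such a p, with a median of 0.11. Hsph1, a chaperone of the HSP110 family, was higher in all 4 pairs, at 166, 119, 142 and 131 CPM in controls and 235, 159, 243 and 152 CPM in Rag2-/- libraries (0.49 ± 0.23). The median of the unfolded protein response was higher, at 0.31 (0.05 to 0.35 under the alternatives), with 0 of 23 at such a p, and its chaperone gene Hspa5 was at 0.44 ± 0.35.

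In energy metabolism, Cyc1, cytochrome c1 of complex III, was the 1 of 46 nuclear-encoded respiratory chain genes with an unadjusted p under 0.05. It stood at 19.6, 25.3, 18.7 and 30.6 CPM in controls and 12.0, 11.4, 10.2 and 12.5 in Rag2-/- libraries, with separate groups and a fold change of -0.97 ± 0.37. The median of this list was 0.00, and that of 8 mitochondrially encoded proteins was -0.10. In glycolysis and lactate transport, 18 of 23 genes were below 0, while 50.2% of all genes were above 0. This list had a median of -0.32, which went to 0.04 without the control of pair 6. Its 1 gene with a small p was higher, namely Pdk1, a kinase that inhibits pyruvate dehydrogenase, at 13.2, 7.398, 6.46 and 4.44 CPM in controls and 16.9, 12.6, 21.5 and 18.9 CPM in Rag2-/- libraries (1.10 ± 0.50). Slc16a1, the lactate transporter through which oligodendrocytes feed axons, was at -0.32 ± 0.34.

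Of 30 genes of lysosomes and autophagy, 1 was higher and 1 lower at an unadjusted p under 0.05, with a median of 0.01. Atg7, an enzyme that activates the ubiquitin-like proteins of autophagosomes, stood at 7.55, 10.1, 5.97 and 6.80 CPM in controls and 16.2, 14.5, 17.2 and 15.5 in Rag2-/- libraries (1.10 ± 0.44) with separate groups. Gabarap, one of those ubiquitin-like proteins, stood at 39.2, 59.9, 103 and 99.7 CPM in controls and 44.2, 39.7, 52.9 and 41.1 CPM in Rag2-/- libraries (-0.83 ± 0.31), lower in 3 pairs and higher in pair 1. Among 12 genes of iron handling, Hfe was the 1 with a small p. It stood at 1.26, 8.21, 36.8 and 1.08 CPM in controls and 1.33, 1.71, 3.44 and 2.30 CPM in Rag2-/- libraries, and its fold change of -2.15 was -1.20 without the control of pair 5. The ferritin heavy chain gene Fth1, at 4802 ± 1093 and 5356 ± 643 CPM (mean ± SD, n = 4 each), was at 0.07 ± 0.13.

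Genes through which lymphocyte signals act differed in level. The median level was 4.04 CPM for interferon response genes and 6.22 CPM for MHC class I presentation, against 8.44 CPM for all genes tested, and 11.9 CPM for receptors of lymphocyte products and 19.4 CPM for disease-associated oligodendrocyte genes. Of 13 interferon response genes tested, 1 had an unadjusted p under 0.05, with a median fold change of 0.23. The median was -0.22 with the littermate pair as a block, which rests on pairs 1, 3 and 5. Of the 25 listed, 12 were too low to be tested. Ifi27, an interferon-induced mitochondrial protein, stood at 9.18, 17.5, 1.95 and 9.07 CPM in controls and 15.9, 29.8, 5.37 and 11.6 CPM in Rag2-/- libraries (1.31 ± 0.54). It was higher in all 4 pairs, while Irf1 was at -1.44 ± 1.16 and Ifitm3 at -1.31 ± 0.83. In MHC class I presentation, 1 of 11 had a small p. The median was -0.22, and it ran from -0.52 without the control of pair 6 to 0.51 without the control of pair 3. Psmb9, a subunit of the immunoproteasome, had 2, 6, 0 and 4 counts in controls and 14, 31, 59 and 14 in Rag2-/- libraries. Its groups were separate, and the fold change was 3.24 ± 1.34. The abundant members overlapped between groups, with B2m, the light chain of MHC class I, at 70.9, 163, 127 and 72.3 CPM in controls and 79.6, 183, 126 and 107 CPM in Rag2-/- libraries (0.18 ± 0.34) and H2-D1, in which 14.9% of the windows have exact copies, at 0.08 ± 0.59. Among 18 receptors for cytokines and growth factors that lymphocytes make and 14 disease-associated oligodendrocyte genes, 0 and 0 had a small p. Their medians were 0.11 and 0.13, and -0.24 and -0.10 without the Rag2-/- library of pair 3. Microglia markers, whose part in these lists was not tested, also took their largest shares in pair 3, 0.175% of the gene counts in the control and 0.157% in the Rag2-/- library. Tnfrsf1a, a receptor for tumour necrosis factor, stood at 2.96, 5.62, 0 and 3.55 CPM in controls and 6.89, 13.8, 3.44 and 0.620 CPM in Rag2-/- libraries (2.18 ± 1.04, unadjusted p = 0.0593 by edgeR's quasi-likelihood test), while the receptor gene Lifr was lower with separate groups (-0.37 ± 0.26).

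Lymphocyte transcripts themselves were near absent in both genotypes, apart from 2 immunoglobulin genes. Of 19 lymphocyte markers, 3 were at 0 in all 8 libraries, among them Cd3d, and 2 passed the filter. Ighm, the heavy chain of IgM, had 143, 409, 485 and 303 counts in controls and 436, 371, 135 and 215 in Rag2-/- libraries (-0.54 ± 0.47). Igkc, the kappa light chain, had 73, 193, 179 and 352 counts in controls and 121, 290, 244 and 321 in Rag2-/- libraries (-0.10 ± 0.58). The estimate for Ighm was 0.24 without the control of pair 5. On the CPM scale, every Rag2-/- library held both transcripts within the range of the controls. Another annotated gene overlaps 97.9% of the exonic bases of Igkc and none those of Ighm. In the list for V(D)J recombination and end joining, 15 genes were tested, with a median of -0.16. The 1 member with an unadjusted p under 0.05 was Iftap, which is linked to cilia and whose gene contains Rag2 (above). No other member of this list had such a p. The nuclease gene Mre11a was higher and its partner gene Nbn lower, both with separate groups (1.71 ± 0.97 and -1.48 ± 0.74, unadjusted p = 0.102 and 0.0675 from edgeR's quasi-likelihood test), and Nbn was at -0.70 without the control of pair 5.

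The RNA-binding protein Quaking, the antigen of the CC1 antibody, is encoded by Qki. It stood at 1212, 1016, 775 and 934 CPM in controls and 1308, 1100.3, 1074 and 1031 in Rag2-/- libraries, higher in all 4 pairs with overlapping groups, and its fold change was 0.28 ± 0.16 with a 95% interval of -0.08 to 0.64. Among 33 splicing and RNA-transport regulators, Quaking included, 28 were above 0, against 50.2% of all genes, with a median of 0.20 (0.13 to 0.32 under the alternatives). The median over littermate ratios was 0.03, 0.03, 0.50 and 0.14 in pairs 1, 3, 5 and 6, so it was near 0 in pairs 1 and 3 and largest in pair 5. None of the 33 had an unadjusted p under 0.05, and for 23 the interval lay within 2-fold. Hnrnpa2b1, which carries Mbp mRNA into processes, was at 0.23 ± 0.23, and the splicing factor gene Srsf7 at 0.79 ± 0.37, or 0.32 without the control of pair 5. Of 16 abundant long noncoding RNAs 10 were below 0, with a median of -0.20, and Malat1, at 4771 ± 455 and 4813 ± 323 CPM (mean ± SD, n = 4 each), was at 0.03 ± 0.13. A list of 9 genes that the study names for oligodendrocytes had 1 higher and 2 lower of 7 tested at such a p. Among them, Man1a2, Ppia and Iftap were picked from these samples, so their values are no independent evidence. The study came to Qki through immunostaining with the CC1 antibody.

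Of 23 immediate early genes, which cell isolation can induce, 0 had a small p and the median was -0.01. Egr1 stood at 277, 356, 329 and 418 CPM in controls and 305, 213, 250.4 and 228 CPM in Rag2-/- libraries (-0.45 ± 0.20), lower in 3 pairs. The class 3 semaphorins with their receptors, the potassium channels and pumps and the clock genes had 0 of 17, 0 of 18 and 0 of 19 genes with an unadjusted p under 0.05, and medians of -0.07, -0.04 and -0.09. Of 16 cyclophilins, Ppia alone had such a p, and the median was 0.13. Cell cycle genes had 0 of 19 and a median of 0.27, which dropped to 0.00452 without the Rag2-/- library of pair 3.

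Of 52 named genes with an unadjusted p under 0.05, 30 kept it with the littermate pair as a block, the 12 genes named in each direction by their p among them. The other 22 did not, with 0.0511 for Cdc37l1 as the smallest and 0.529 for Lrp5 as the largest p of edgeR's quasi-likelihood test with the block. Their fold change kept its sign, and for 16 of the 22 it stayed within 1.5 times the value without the block, as for Rheb (1.00), Ugcg (1.25), Rpl13a (1.75), Atg7 (1.04) and Cyc1 (-0.91). It was smaller by more than that for Rn7sk (-0.35), Tsc2 (0.49), Gabarap (-0.46), Pura (-0.31), Gad2 (-0.32) and Lrp5 (0.68). The fit with the block leaves fewer degrees of freedom for the spread. Sqle (0.0335) and Hsph1 (0.0172) had an unadjusted p under 0.05 with the block in edgeR's quasi-likelihood test.

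Markers of other cell types also differed between libraries. Neuron markers summed to 0.135% to 0.268% in controls and 0.115% to 0.233% in Rag2-/- libraries. Of these markers 14 of 15 were below 0, with a median of -0.40, while 50.2% of all genes were above 0. Tubb3 (-1.34 ± 0.58) and Gad2 (-1.31 ± 0.58) had an unadjusted p under 0.05. Both were highest in the control of pair 6, and without that library the list's median was -0.00282. The part of neuron transcripts in genes that were highest in this library was not tested.

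Astrocyte markers summed to 0.124%, 0.125%, 0.147% and 0.232% in controls and 0.152%, 0.131%, 0.190% and 0.123% in Rag2-/- libraries. The sum was higher in the Rag2-/- mouse of pairs 1, 3 and 5 and lower in that of pair 6. The median over 15 genes was -0.52, and 0.21 with the littermate pair as a block. Over the littermate ratios it was -0.11, -0.01, 0.44 and -0.87. Microglia markers summed to 0.0345% to 0.175% and 0.0603% to 0.157%, with a median of 0.15, and endothelial markers to 0.000814% to 0.00528% and 0.000500% to 0.00152%, with a median of 0.14 over 6 genes.

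**Figure D4:**
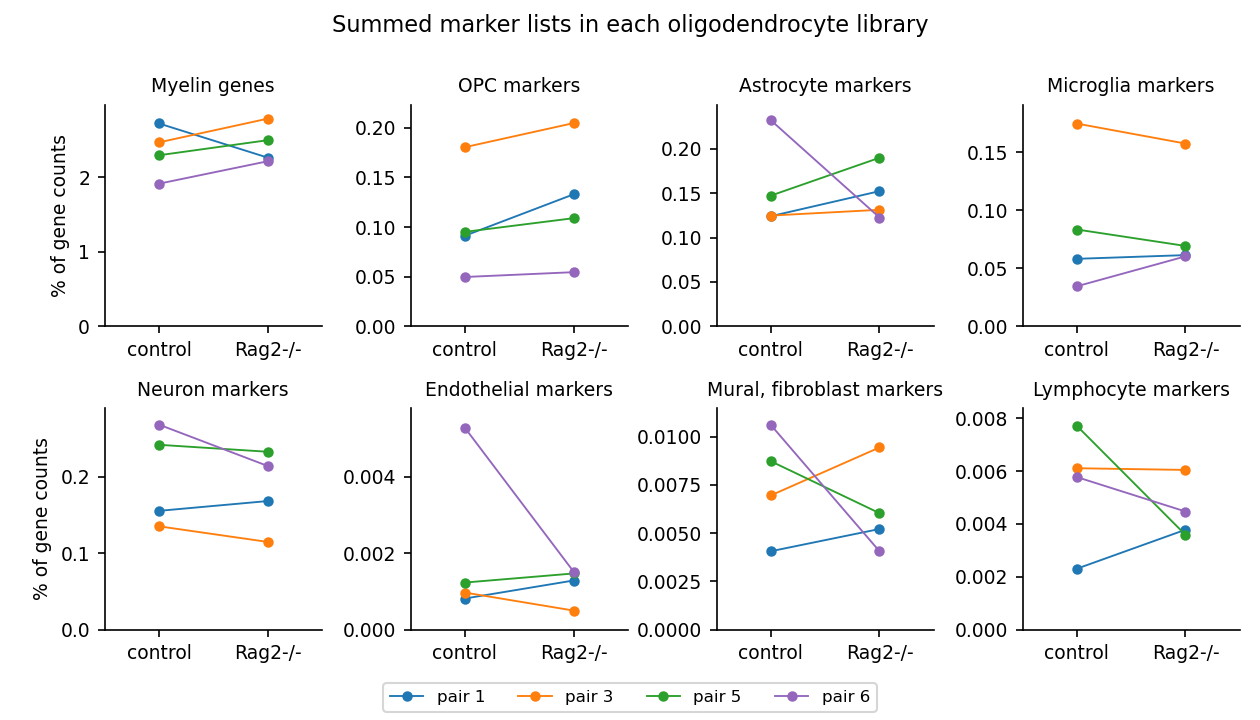
Each panel shows the summed counts of 1 marker list as a percent of all gene counts in the 4 control and 4 Rag2-/- libraries, with littermates joined by a line and each vertical axis on its own scale from 0. Myelin genes hold 1.92% to 2.79% of the counts and the neuron markers at most 0.268%, and the control of pair 6 has the highest astrocyte, neuron, endothelial and mural sums.

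The effect of genotype in oligodendrocytes was compared with that in the other cell types in a joint edgeR fit of all 43 libraries, as the effect in oligodendrocytes less the mean effect in OPCs, astrocytes and microglia. With 1 spread for all cell types, 474 of 21368 genes (2.22%) passed an adjusted p of 0.05, with 213 higher and 261 lower, and 3730 had an unadjusted p under 0.05. With a spread for each cell type (limma's voom, chosen after the data were seen), 0 genes passed, 1230 had an unadjusted p under 0.05, and the smallest adjusted p was 0.0938, for Smad5. For 155 of the 474 genes (32.7%) a single oligodendrocyte library held most of the normalised oligodendrocyte counts. The count was 281 without the control of pair 5, 868, 785, 887 and 741 without the controls of pairs 1 and 3 and the Rag2-/- libraries of pairs 1 and 3, and 450 to 554 without the others. Without the control of pair 5, the only female oligodendrocyte control, the effect in oligodendrocytes rests on male mice. The comparison uses the same oligodendrocyte libraries as above.

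The smallest adjusted p-values of this contrast belonged to Zfp219, Psmd5, Smad5, Wwp1 and Ext2. For Smad5 the fold change was 1.16 in oligodendrocytes and -0.09 to -0.06 in the other cell types, a difference of 1.23 ± 0.17 (adjusted p = 9.7e-05 with 1 spread and 0.0938 with a spread for each cell type). This standard error was smaller than the 0.28 of the fit of oligodendrocytes alone. Oligodendrocyte libraries varied more than the others (above), so errors from 1 spread can be too small for this contrast. Wwp1 was at 1.60 in oligodendrocytes and -0.26 to 0.11 in the others, and Psmd5 at 1.90 and -0.27 to 0.23. Zfp219, a zinc finger protein with 3.18, 1.70, 3.90 and 3.84 CPM in control and 0.0632, 0.371, 0.506 and 0.0886 in Rag2-/- oligodendrocytes, was at -3.70 and -0.09 to 0.03. Man1a2 was at -1.04 and -0.19 to 0.01. The adjusted p-values of these 5 genes and of Man1a2 were 1.84e-05 to 0.00355 with 1 spread and 0.0938 to 0.536 with a spread for each cell type.

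Iftap was low in Rag2-/- libraries of all 4 cell types, with fold changes of -6.69, -7.98, -9.75 and -7.45 in oligodendrocytes, OPCs, astrocytes and microglia, and its difference did not pass (adjusted p = 0.339 with 1 spread). For Mbp the oligodendrocyte value of 0.02 lay within those of the other cell types, -0.09 to 0.50. Qki was at 0.31 in oligodendrocytes and 0.02 to 0.06 in the others, a difference of 0.27 ± 0.14 (adjusted p = 0.291 with 1 spread).

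**Figure D5:**
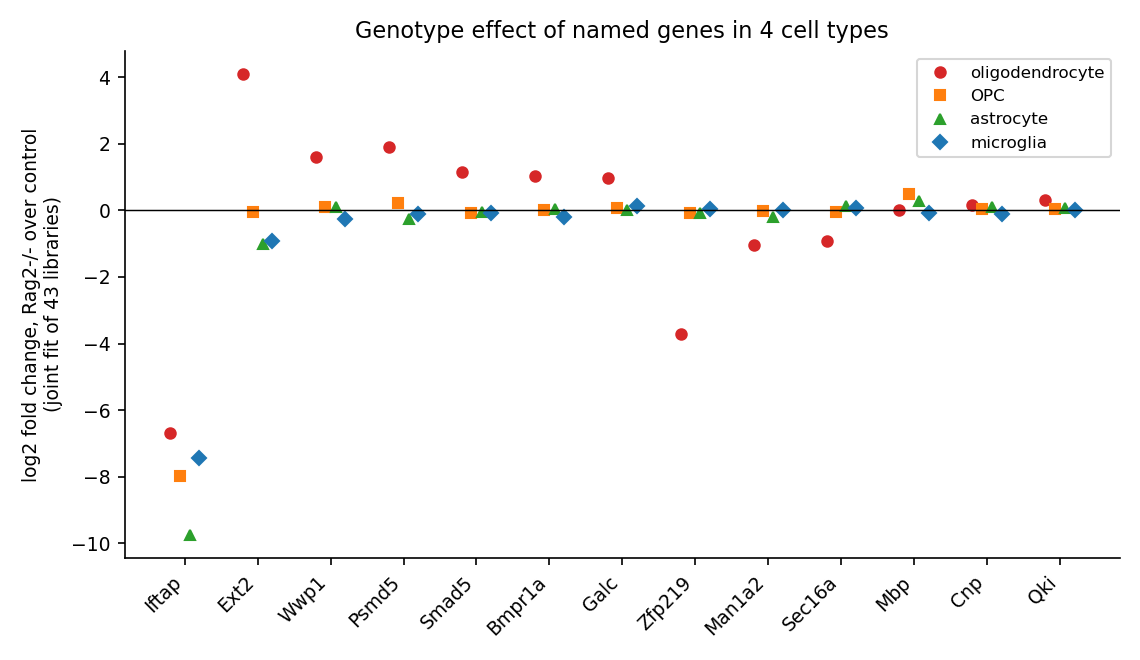
For 13 named genes, the log2 fold change, Rag2-/- over control, in the joint fit of 43 libraries is shown on the vertical axis for oligodendrocytes (red circles), OPCs (orange squares), astrocytes (green triangles) and microglia (blue diamonds). Iftap is low in all 4 cell types, while for Wwp1, Psmd5, Smad5, Bmpr1a, Galc, Zfp219, Man1a2 and Sec16a the other cell types lie between -0.27 and 0.23.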

How the data were processed

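Oligodendrocytes from the cortical grey matter of 8 mice were profiled by RNA-seq, and 35 libraries of OPCs, astrocytes and microglia were used for the spread and for 1 contrast. The authors amplified cDNA with the Ovation V2 system, aligned paired reads with STAR 2.7.8a to GRCm39 and counted read pairs per gene with HTSeq. The strand and overlap settings of the counting are not given in the sources used here, so reads of overlapping or antisense genes cannot be told apart. The deposited values are raw read counts per gene, 1 table per library, without normalization. Rows that name no gene took 33.5% to 40.5% of all counts and were left out. Exons of other genes overlap 44.2%, 46.0%, 60.9%, 41.5% and 45.6% of the exonic bases of Hspa5, Irf1, Ifitm3, Fth1 and Hnrnpa2b1, whose values are therefore uncertain.

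Groups came from the labels, and no pair of libraries held the same counts. Genes were kept by edgeR's filterByExpr (count of 10 and total of 15) and tested with edgeR 4.0.16 (TMM, quasi-likelihood F test, terms for sex and genotype, in R 4.3.3) with Benjamini-Hochberg adjustment over 13802 genes. Fold changes carry edgeR's prior count. Standard errors are the size of the fold change over the square root of its F statistic. The 95% intervals use these errors and the t distribution. The script was tested on simulated data. A joint fit of 43 libraries had a mean for each cell type and genotype, a sex term for each cell type and no term for mouse. Littermate ratios added 0.5 CPM to both values. Symbols, positions and overlaps came from GENCODE M39 (GRCm39), and exact 50-base copies in the genome were sought with BLAST+ 2.17.0. Counts per library between 9009143 and 14936552 put the floor of 3 counts at well under 1 CPM.

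Pair numbers mark littermates. Deviations from the group means correlated at 0.118 on average within pairs (0.0598 to 0.250) and at -0.0385 between pairs (-0.155 to 0.0669). Alternatives were 21 settings, 20 of them distinct since heterozygous controls alone are the libraries without the control of pair 6, of normalization, filter, tool (DESeq2 1.42.0, limma 3.58.1), covariates and samples, the littermate block and each left-out library included. Genes named are members of 43 lists of 931 genes, the 12 with the smallest p in each direction that have a symbol other than a predicted-gene name, the 5 with the smallest adjusted p of the joint contrast, and others said to be named after their values were seen. Members and lists were chosen with earlier results of these data known. The values of some list members are not reported here.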

Additional observations from a re-analysis of the deposited data

Results flagged for a closer look

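Among 216 groups of 4 libraries of a named gene, 21 (9.72%) held 1 library far from the other 3 by Dixon's test at its 95% critical value. In 5 of all groups at least 3 libraries were at 0 counts, which alone sets the ratio for the 4 with a count in the fourth (Glb1l2 in controls, Notch3, Iftap and Adamts18 in Rag2-/- libraries). In the other 211 groups 17 (8.06%) stood apart. The test's chance rate of about 1 in 20 assumes normally distributed values. CPM were used here without a transformation, and many of the genes were chosen by their p, so this share is a description. The control of pair 6 stood above the others with 0.0986 CPM of Glb1l2, 14.4 CPM of Shisa3, 88.9 CPM of Sqle, 31 CPM of Sptlc2 and 11.1 CPM of Id3. The Rag2-/- library of pair 1 stood above the others with 4.11 CPM of Glb1l2, 0.126 CPM of Adamts18, 27.7 CPM of Lrp5, 26.2 CPM of Rpl13a and 15.1 CPM of Ostc. The control of pair 1 stood above the others with 42.9 CPM of Smad5. The Rag2-/- library of pair 6 stood above the others with 16.3 CPM of Dnmt3b, 0.177 CPM of Iftap and 44.1 CPM of Sqle. The Rag2-/- library of pair 3 stood above the others with 0.0742 CPM of Notch3, 57.7 CPM of Man1c1 and 37 CPM of Smad4. The Rag2-/- library of pair 5 stood above the others with 14.4 CPM of Id4. The control of pair 5 stood above the others with 18.3 CPM of Axin2. The control of pair 5 stood below the others with 1.59 CPM of Lrp5. The Rag2-/- library of pair 6 stood below the others with 22.2 CPM of Man1a.

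For 36 of the 108 named genes in the joint fit the effect of genotype stood apart in oligodendrocytes, against the mean over the other 3 cell types, at an adjusted p under 0.05 of the joint edgeR fit with 1 spread for all cell types. Over all genes 2.22% passed, and many of the named genes were chosen for a small p in the same oligodendrocyte libraries, so this count is a description and no test of the named genes. With a spread for each cell type 0 of them passed. The difference of log2 fold changes was above 0 for Ext2 (4.77), Wwp1 (1.62), Psmd5 (1.95), Glb1l2 (6.08), Tmem184c (1.69), Smad5 (1.23), Dnmt3b (5.40), Ebag9 (1.62), Arf2 (1.97), Cby1 (2.19), Ppia (2.10), Galc (0.91), Ugcg (1.30), Bmpr1a (1.08), Hey1 (1.82), Lrp5 (1.99), Atg7 (1.08), Ifi27 (1.40), Rheb (0.99), Magt1 (1.01), Ostc (1.28) and Tnfrsf1a (1.66). It was below 0 for Notch3 (-6.61), Ckmt1 (-2.44), Magee2 (-9.34), Sdk2 (-2.99), Man1a2 (-0.97), Gli1 (-4.29), Shisa3 (-5.53), Sec16a (-0.96), Acta2 (-4.19), Zfp219 (-3.66), Carm1 (-1.26), Gabarap (-0.82), Hfe (-1.98) and Notch1 (-0.87). Where a group was at or near 0 counts, as for Magee2 and Notch3, the fitted difference depends on the prior count and is no bound.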

How the results depend on the processing

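The count of 0 called genes held in the alternatives except 3: it was 14 without a filter on low counts, 199 with DESeq2 on all genes and 12 with DESeq2 on the filtered genes. The 467 genes with an unadjusted p under 0.05 were 1408, 1572 and 830 under these 3, and 255 with a mean count of at least 100. Members of the lists with such a p were 26, and 54, 60 and 44 under these 3. The 325 genes with separate groups were 136 with a mean count of at least 100, 678 with heterozygous controls alone (the same libraries as without the control of pair 6), 3054 with male mice alone and 657 to 781 as each library was left out, where fewer libraries have to be separate. With the littermate pair as a block, 0 genes were called, with a smallest adjusted p of 0.0571 for Ext2, and 384 had an unadjusted p under 0.05. The 474 genes of the contrast with other cell types were 352 with the block, of which 336 were shared, 281 to 887 as each library was left out, and 0 with a spread for each cell type. The values of named genes under the alternatives were classed with the heterozygous controls counted once. Of these values 1839 were unchanged, 198 kept direction but missed the threshold, 59 passed it and 38 moved by at least their standard error. For genes with an unadjusted p under 0.05, unchanged means the same direction and side of the threshold. For the other genes it means a move smaller than the standard error with the threshold still missed, and the sign could change. Of the list medians 833 moved by less than the spread of the list's level between libraries of the same group, and 25 by more. No result passed the threshold in the opposite direction. Where the alternatives differ, the cause was not tested. Below 20 CPM most intervals reach beyond a 2-fold change.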
